A study of Mus musculus with 12 samples.

Results

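The autophagy machinery genes are a set of 39 mouse genes that encode the initiation kinase complex, the lipid kinase complex, the membrane supply and lipid binding proteins, the conjugation enzymes, the ATG8 proteins, the cargo receptors and a pair of transcription factors of autophagy. The set, and the further lists below, were chosen with earlier results of these data known. Their shares beside those of all genes are therefore description. The 39 genes were selected by gene symbol from the deposited count table. All 39 were among its 34513 genes, and all 39 were among the 18338 genes that passed the filter on low counts; the lowest count of any of them in any library was 422. RNA was sequenced from cultures of Melan-A, a non-tumorigenic mouse melanocyte line, and of B16F0 and B16F10, which are mouse melanoma lines, each untreated (the control) and with SX-682, an antagonist of the chemokine receptors CXCR1 and CXCR2. There were 12 libraries, 2 for each line and condition. The labels used here give no dose or time for these cultures, and they do not say that replicates were separate cultures, so p-values measure the spread between these libraries. Each line is a single established cell line, so line and culture history cannot be told apart.

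Macroautophagy wraps cytoplasm in a double membrane and delivers it to lysosomes. The ULK kinase complex starts the process, the class III phosphatidylinositol 3-kinase complex marks the growing membrane with the lipid PI3P, and a ubiquitin-like conjugation system attaches ATG8 proteins (the LC3 and GABARAP subfamilies) to it. Cargo receptors such as p62, the product of Sqstm1, bind both cargo and ATG8 proteins and are themselves degraded on the way, and TFEB and TFE3 drive transcription of lysosomal and autophagy genes. Transcript levels were measured here, and neither lipidation of ATG8 proteins nor autophagic flux was.

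Melanocytic markers were read as a check of the labels. The 7 melanocytic genes summed to 1359 CPM (counts scaled to a common library size) in Melan-A controls, 18620 in B16F0 controls and 24450 in B16F10 controls. In Melan-A, Sox10 had 655 and 685 CPM in the controls, while Tyr was under 1 CPM in all 4 libraries and Pmel was between 7.53 and 8.69 CPM. In the B16 controls Pmel had 4474 to 5348 CPM and Tyr 65.8 to 516 CPM. The Melan-A cultures were thus low in these pigment genes, and the line is named here by its label. Of the markers of other cells, the leukocyte gene Ptprc was at most 0.255 CPM, and the summed leukocyte markers went from 16.2 to 44.7 CPM in Melan-A with SX-682, almost all of it Cd68; its part in the results below was not tested. The summed fibroblast markers were at 50.4 and 50.6 CPM in Melan-A without and with SX-682, and at 13.9 and 3.92 CPM in B16F0 and B16F10 controls. Most of the Melan-A sum was Col1a1 (45.7 and 47.1 CPM in controls). Pdgfra had 4.38 and 3.62 CPM in Melan-A controls, 8.38 and 7.835 in B16F0 and 1.24 and 1.42 in B16F10. The part of these markers in the differences between untreated lines was not tested. Library totals were between 48876982 and 85322092 counts, and each library was closest by rank correlation to the other library of its group.

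The upstream sequences of 3 members are shown because they set members with unlike responses side by side: Sqstm1 and Gabarapl1 rose by at least 0.5 on the log2 scale in all 3 lines, and Atg3 carries the motif of TFEB and TFE3 while its log2 fold changes were at most 0.13. They are the 250 bases before the start site in RefSeq on GRCm38.p6, 5′ to 3′, with CACGTG (the E-box) and TCACGTGA (the core of the CLEAR element, which contains the E-box) in capitals.
Atg3, chr16:45158579-45158828, plus strand: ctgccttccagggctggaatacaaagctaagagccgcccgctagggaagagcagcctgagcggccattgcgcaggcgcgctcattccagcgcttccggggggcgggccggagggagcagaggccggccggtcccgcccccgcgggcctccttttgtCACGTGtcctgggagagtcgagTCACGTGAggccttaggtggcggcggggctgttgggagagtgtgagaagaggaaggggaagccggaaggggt
Sqstm1, chr11:50210821-50211070, minus strand: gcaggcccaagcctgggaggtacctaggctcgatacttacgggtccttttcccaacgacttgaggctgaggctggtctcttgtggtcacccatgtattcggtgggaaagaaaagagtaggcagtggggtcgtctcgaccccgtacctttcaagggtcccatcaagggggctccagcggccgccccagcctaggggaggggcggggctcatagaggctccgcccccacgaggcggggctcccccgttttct
Gabarapl1, chr6:129532942-129533191, plus strand: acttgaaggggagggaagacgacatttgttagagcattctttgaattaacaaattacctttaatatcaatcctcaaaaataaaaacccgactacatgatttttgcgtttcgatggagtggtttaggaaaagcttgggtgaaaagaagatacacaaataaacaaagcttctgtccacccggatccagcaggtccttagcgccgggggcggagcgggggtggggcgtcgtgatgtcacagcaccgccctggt
In the Atg3 sequence CACGTG begins at position -94 from the start site and again inside the TCACGTGA that begins at -72; the other sequences hold neither word. Promoters of 33 of the 39 members were matched by symbol, as windows of 300 bases, and both strands were searched. CACGTG was present in 4 of them, those of Atg3, Atg5, Atg7 and Atg14 (12.1%, against 8.09% of 27025 genes), and TCACGTGA in that of Atg3 alone (3.03% against 1.12%). TGATGNAA, the C/EBP-ATF response element, was in 0 of 33, against 4.51% of all genes. These matches describe letters in a short window and say nothing of binding. Of the other members with CACGTG, Atg14 had log2 fold changes with SX-682 of 0.57, 0.36 and 0.49 in Melan-A, B16F0 and B16F10. Those of Atg7 were 0.16, 0.27 and 0.057, and those of Atg5 were -0.15, -0.093 and -0.077. The Atg7 window begins at 114670846 on chromosome 6, inside the gene, whose annotated start is 114643097. The Atg14 window, on the minus strand of chromosome 14, spans 47568385 to 47568684. It too lies inside its gene, whose annotated 5′ end is 47570649. Whether the motif bears on any of these changes was not tested.

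Levels of different genes were compared per length, as RPKM, which divide CPM by the length of the exons in kilobases. In untreated cells Sqstm1 ranked first of the 39 in each line, with 384 ± 6.70 RPKM (SD, n = 2) in Melan-A, and B16F0 and B16F10 had 430.4 ± 4.61 and 266 ± 1.40. Gabarap and Gabarapl1 held the next places, in that order in Melan-A and in the reverse order in both B16 lines. In B16F0 these neighbours had 91.8 ± 3.28 RPKM (Gabarap) and 95.96 ± 2.72 RPKM (Gabarapl1), so that mean and SD of one reached into those of the other. Map1lc3a, Atg101 and Tax1bp1 were in places 4 to 7 of every line, at levels between 29.2 and 51.5 RPKM. The lowest member in all 3 lines was Atg16l2, the less studied relative of Atg16l1, with 1.27 ± 0.0512 RPKM in Melan-A, and B16F0 and B16F10 had 1.05 ± 0.0176 and 0.900 ± 0.0493. Lengths are the union of all annotated exons, so a gene with a long annotated union, such as Map1lc3b at 7517 bases against 1844 for Gabarap, is set lower on this scale than a shorter transcript would place it.

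**Figure D1:**
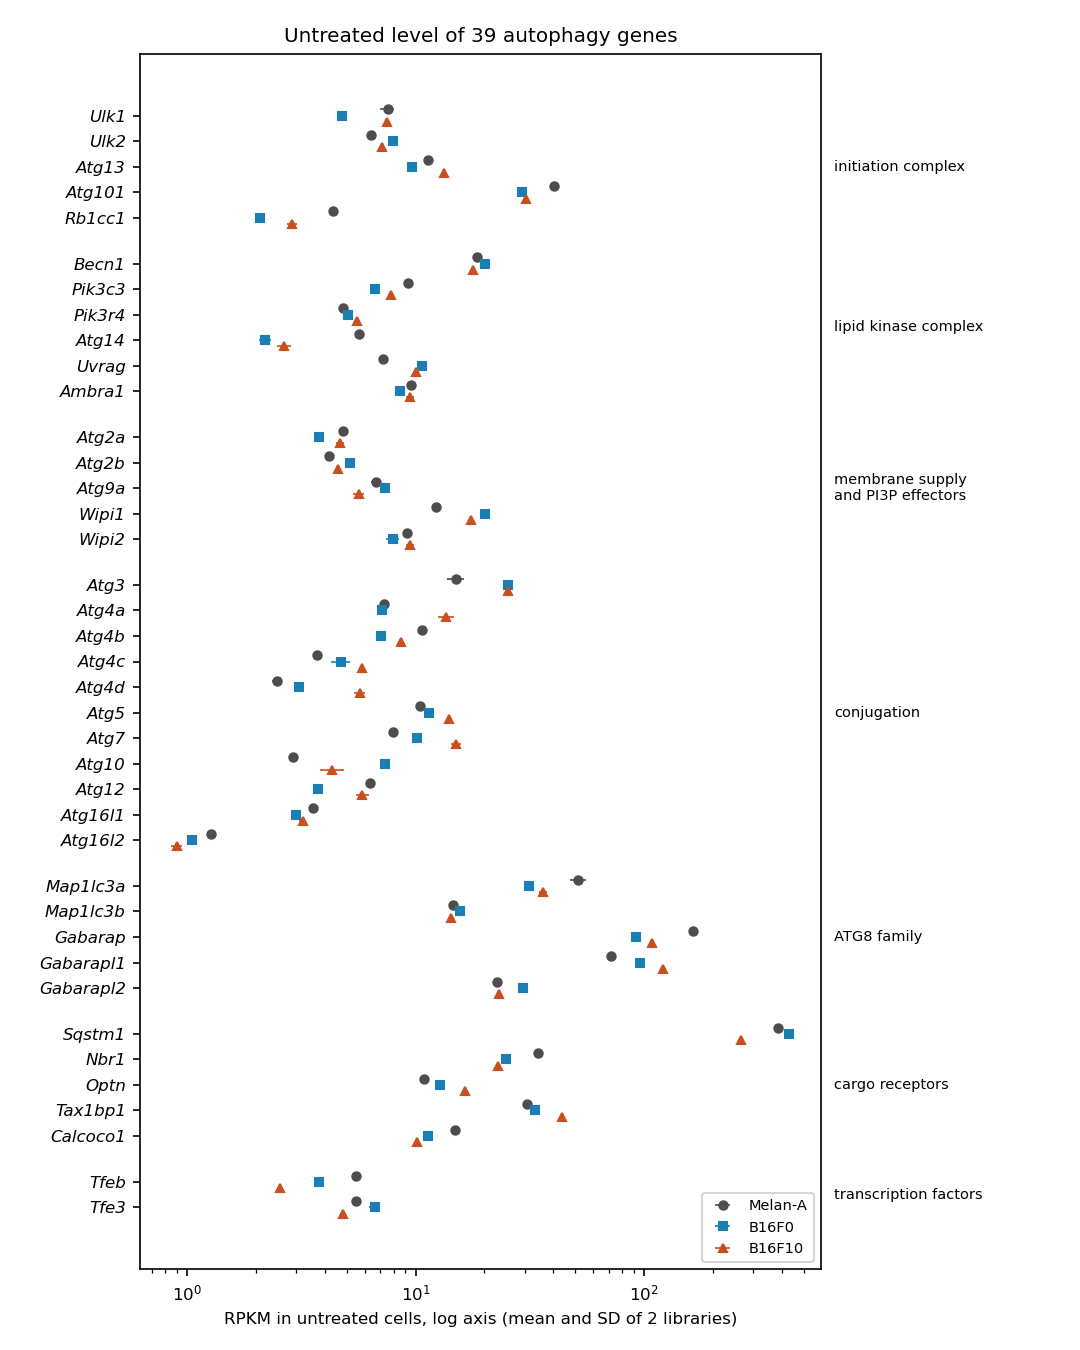
Untreated level of each of the 39 genes in RPKM on a log axis, by role, in Melan-A, B16F0 and B16F10 controls (symbols, mean of 2 libraries; bars, SD). Sqstm1 lies furthest to the right in every line, at 384, 430 and 266 RPKM, and Atg16l2 furthest to the left.

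The untreated B16 lines were compared with untreated Melan-A, and with each other, in edgeR's quasi-likelihood test over all 18338 genes with Benjamini-Hochberg adjustment at 0.05. Against Melan-A, 19 of the 39 genes were higher in B16F0 (48.7%, against 35.3% of all genes tested) and 18 were lower (46.2% against 40.6%). In B16F10, 16 were higher (41.0% against 33.4%) and 16 were lower (41.0% against 40.8%). Of B16F10 against B16F0, 21 were higher (53.8% against 30.8%) and 15 were lower (38.5% against 31.2%). The median absolute log2 difference of the members from Melan-A was 0.351 in B16F0 and 0.489 in B16F10, beside 0.714 and 0.681 over all genes tested. All genes tested include genes with far lower counts than any member, such as Rragb at 0 CPM in B16F10 controls. The shares and medians here and below were not matched for counts, so power to call a change differs between members and all genes. With library totals in place of TMM, which shifts the median log2 difference of B16F10 against Melan-A over all genes by -0.186, the split there was 12 higher and 23 lower. For B16F0 against Melan-A, the 19 higher became 14 with library totals. They became 16 in DESeq2, with RLE scaling and with at least 10 counts in every library, while 18 were lower in each.

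Members that differed from Melan-A by at least 1 on the log2 scale were Atg10, Atg14, Rb1cc1, Atg4d and Tfeb. Atg14, the subunit that directs the lipid kinase complex to the autophagosome site, had 25.1 and 23.9 CPM in Melan-A controls against 9.84 and 9.04 in B16F0 and 10.9 and 12.1 in B16F10. No B16 control library reached the Melan-A controls, and the log2 differences were -1.37 (SE 0.068, adjusted p = 2.33e-17) and -1.09 (SE 0.068, adjusted p = 6.09e-15). Rb1cc1, which encodes the scaffold FIP200 of the ULK complex, had 62.96 and 64.9 CPM in Melan-A, 30.3 and 30.9 in B16F0 and 40.6 and 43.7 in B16F10, so that it too was highest in Melan-A (log2 difference -1.06 in B16F0, SE 0.042, adjusted p = 8.27e-20). Tfeb was highest in Melan-A (30.9 and 30.97 CPM), lower in B16F0 (21.2 and 21.7) and lowest in B16F10 (14.3 and 14.6; log2 difference of B16F10 from Melan-A -1.10, SE 0.056, adjusted p = 5.13e-17). Atg10, the E2-like enzyme for ATG12, was the opposite case, with 4.89 and 5.06 CPM in Melan-A, 12.2 and 12.9 in B16F0 and 8.03 and 6.79 in B16F10 (log2 difference of B16F0 1.33, SE 0.091, adjusted p = 5.83e-14). Atg4d, a protease of ATG8 proteins, was highest in B16F10 at 42.98 and 39.7 CPM, against 17.3 and 18.6 in Melan-A (log2 difference 1.20, SE 0.061, adjusted p = 3.58e-17).

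With SX-682, 25 of the 39 genes rose in Melan-A (64.1%, against 23.4% of all genes tested) and 5 fell (12.8% against 24.7%; 3 without SX-682 replicate 1). In B16F0, 20 rose (51.3% against 25.1%) and 7 fell (17.9% against 25.0%), and in B16F10, 20 rose (51.3% against 25.5%) and 8 fell (20.5% against 25.3%). Raised in all 3 lines were 14 members (35.9% against 11.3%), namely Sqstm1, Calcoco1, Optn, Gabarapl1, Gabarap, Map1lc3a, Atg10, Atg12, Atg14, Atg16l2, Rb1cc1, Uvrag, Tfeb and Tfe3. Lowered in all 3 lines were 3 (7.69% against 11.7%), which were Atg4a, Atg4d and Gabarapl2. Only Atg4b passed in none of the lines, and with library totals in place of TMM it passed in B16F0 (log2 fold change -0.10, adjusted p = 0.0228). Most changes were small: the median log2 fold change of the members was 0.21 in Melan-A, and those in B16F0 and B16F10 were 0.10 and 0.12, where that of all genes tested was 0, and their median absolute log2 fold change (0.25, 0.20 and 0.19) was below that of all genes tested (0.31, 0.32 and 0.36). With a further limit of 0.5 on the absolute log2 fold change, 5 members rose in Melan-A, and 4 and 6 did so in B16F0 and B16F10. The share of all genes tested under that limit was not counted, so these numbers have no background beside them. The replicate spread was narrow, with a biological coefficient of variation of 2.78%, and 2 libraries against 2 cannot give an exact 2-sided permutation p under 0.333, so these calls rest on the spread pooled over genes and groups.

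**Figure D2:**
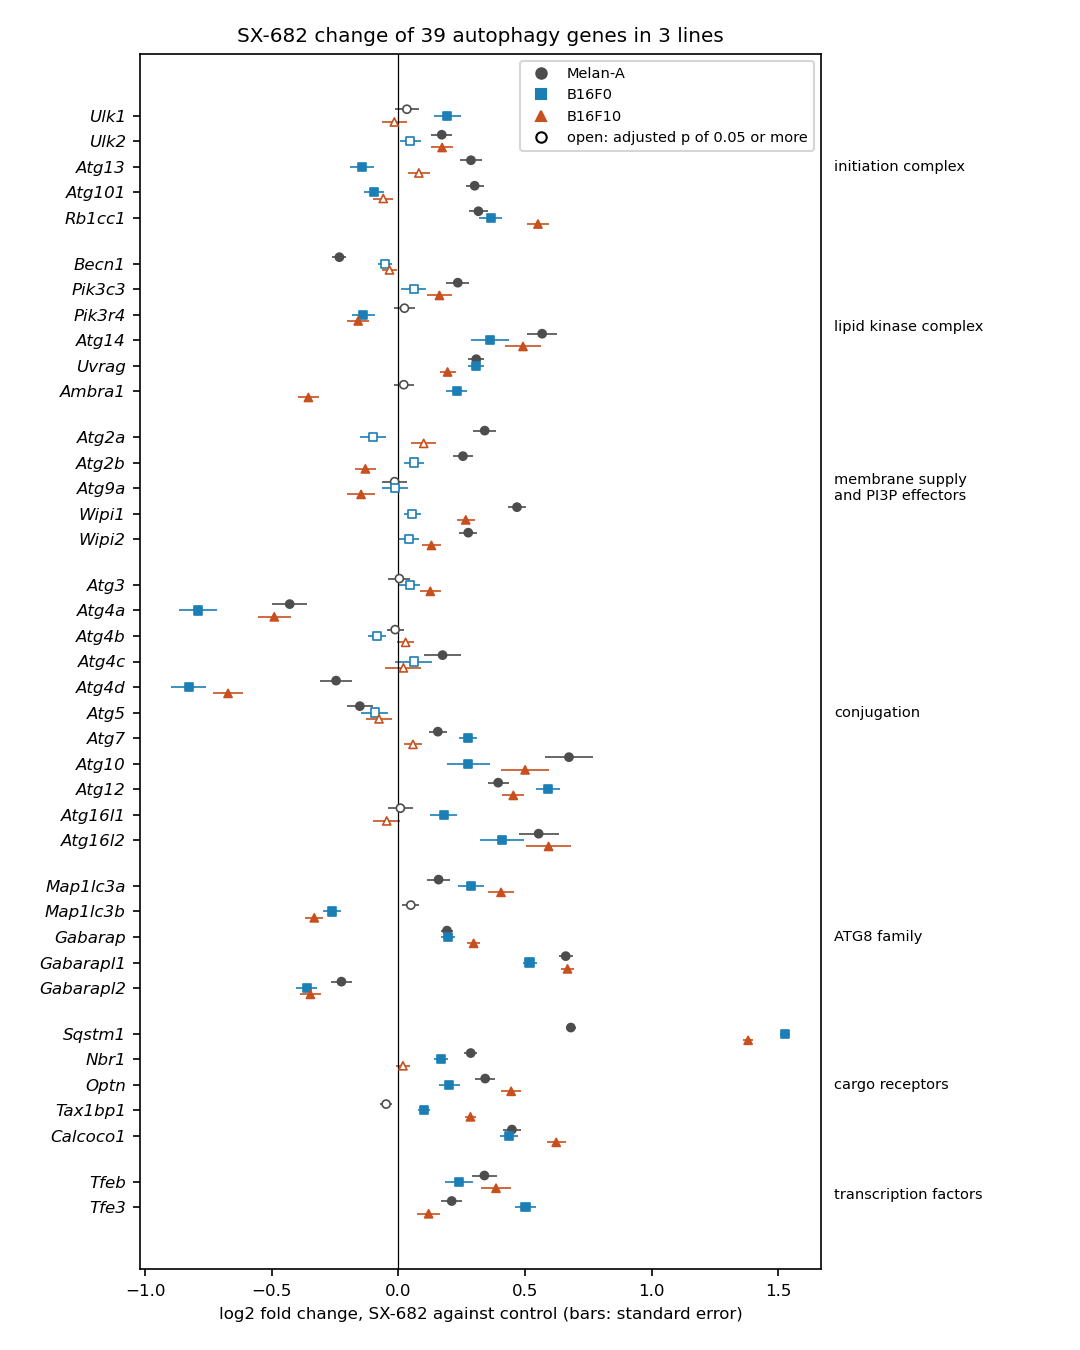
Log2 fold change of each of the 39 genes with SX-682 against control, by role, in the 3 lines (symbols; bars, standard error; open symbols did not pass the threshold of 0.05). Most filled symbols lie right of 0, Sqstm1 stands furthest right in B16F0 and B16F10 (1.53 and 1.38), and Atg4a and Atg4d lie furthest left.

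Of the 5 cargo receptors, 5 rose in B16F0 and 4 each in Melan-A and B16F10, and none fell in any line. Of all genes tested, 23.4%, 25.1% and 25.5% rose and 24.7%, 25.0% and 25.3% fell in Melan-A, B16F0 and B16F10. The largest change belonged to Sqstm1, whose product p62 gathers ubiquitinated cargo. Its level was 1274 and 1305 CPM in the Melan-A controls and 2069 and 2066 with SX-682. In B16F0 it went from 1455 and 1434 to 4086 and 4244 CPM. In B16F10, where the controls were lowest at 896 and 889 CPM, it reached 2311 and 2342. Every SX-682 library lay above every control library of any line. Fold changes were 1.60 in Melan-A (log2 0.68, SE 0.019, adjusted p = 2.12e-22), 2.88 in B16F0 (log2 1.53, SE 0.019, adjusted p = 7.88e-31) and 2.61 in B16F10 (log2 1.38, SE 0.019, adjusted p = 4.6e-30). The mean response of the B16 lines exceeded that of Melan-A by 0.77 on the log2 scale (SE 0.023, adjusted p = 3.53e-21), and that of B16F10 was smaller than that of B16F0 (difference -0.15, SE 0.027, adjusted p = 7.2e-05). Sqstm1 shares 17.3% of its exonic bases with Mrnip on the opposite strand, and whether the counting used strand is not given in the sources used here. Sqstm1 counts were at least 78.6 times those of Mrnip in every library. Gabarapl1 (28.3%) and Uvrag (17.6%) also share exonic bases with an opposite-strand gene, and Atg9a (31.8%) with a same-strand gene. Counts of these partner genes were at least 419 times lower in every library. How reads in shared bases were counted is not given.

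Calcoco1, a receptor in turnover of endoplasmic reticulum and Golgi, was the next receptor by size of change. It had 82.95 and 86.7 CPM in Melan-A controls and 117 and 115 with SX-682, 63.7 and 65.95 against 84.8 and 91.05 in B16F0, and 58.5 and 58.1 against 88.7 and 90.8 in B16F10. Treated and control libraries did not overlap in any line, and the log2 fold changes were 0.45 (SE 0.035, adjusted p = 4.93e-12), 0.44 (SE 0.037, adjusted p = 3.3e-11) and 0.62 (SE 0.038, adjusted p = 1.24e-14). Optn, a mitophagy receptor, rose by 0.34, 0.20 and 0.45 on the log2 scale. Nbr1, which acts beside p62, rose in Melan-A and B16F0 (0.29 and 0.17) and had a log2 fold change of 0.018 in B16F10 that did not pass. Tax1bp1 rose in B16F0 and B16F10 (0.10 and 0.28) and had -0.049 in Melan-A, which did not pass. Of the summed RPKM of the 5 receptors, Sqstm1 held 80.9% in Melan-A controls and 85.4% with SX-682, 83.9% and 93.0% in B16F0, and 74.1% and 85.8% in B16F10.

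The ATG8 family moved in both directions: Gabarapl1, Gabarap and Map1lc3a rose in all 3 lines, Gabarapl2 fell in all 3, and Map1lc3b, the gene of the most used autophagosome marker LC3B, fell in both B16 lines. In each line 3 of 5 rose (60%, against 23.4% to 25.5% of all genes tested), and 1 fell in Melan-A and 2 in each B16 line (20% and 40%, against 24.7% to 25.3%). Gabarapl1 had 147 and 142 CPM in Melan-A controls and 228 and 229 with SX-682. The B16F0 values were 197 and 189 CPM in controls against 275 and 279 with SX-682. Those of B16F10 were 249 and 239 CPM against 382 and 393. The treated libraries of each line lay above its controls, and the log2 fold changes were 0.66 (SE 0.028, adjusted p = 4.2e-18), 0.52 (SE 0.028, adjusted p = 9.45e-16) and 0.67 (SE 0.027, adjusted p = 1.22e-18). Gabarap rose by 0.19, 0.20 and 0.30 on the log2 scale and Map1lc3a by 0.16, 0.29 and 0.41, in Melan-A, B16F0 and B16F10 in turn. The Melan-A call of Map1lc3a was lost without control replicate 1 (log2 fold change 0.090, adjusted p = 0.16). Gabarapl2 had log2 fold changes of -0.23, -0.36 and -0.35, and Map1lc3b of 0.049 (not passing), -0.26 and -0.33.

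These unequal changes shifted the composition of the family. Its summed RPKM was 324 ± 3.38 (SD, n = 2) in Melan-A controls and 392 ± 0.629 with SX-682, 264 ± 2.15 and 317 ± 1.09 in B16F0, and 303.7 ± 5.60 and 404 ± 5.08 in B16F10. Gabarapl1 made up 22.2% ± 0.726 of it in Melan-A controls and 28.95% ± 0.0444 with SX-682. The corresponding shares were 36.3% and 43.4% in B16F0 and 39.9% and 47.7% in B16F10. The share of Map1lc3b went from 4.51% to 3.85% in Melan-A, and those in B16F0 and B16F10 from 5.92% to 4.13% and from 4.72% to 2.82%. Gabarapl2 went from 7.04% to 4.97%, from 11.1% to 7.22% and from 7.64% to 4.51%. Between untreated lines, Gabarap was the leading transcript in Melan-A with 50.4%, while in B16F10 Gabarapl1 led with 39.9% against 35.9% for Gabarap. No test was run on the shares, which are bound to sum to the whole within a library. They rest on the union of exons, 7517 bases for Map1lc3b and 1181 to 2325 for the others, which sets the Map1lc3b share low. In CPM, Map1lc3b had 110 in Melan-A controls beside 145 for Gabarapl1. Members of this family have similar coding sequences, and how reads that fit several places were counted is not given in the sources used here.

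**Figure D3:**
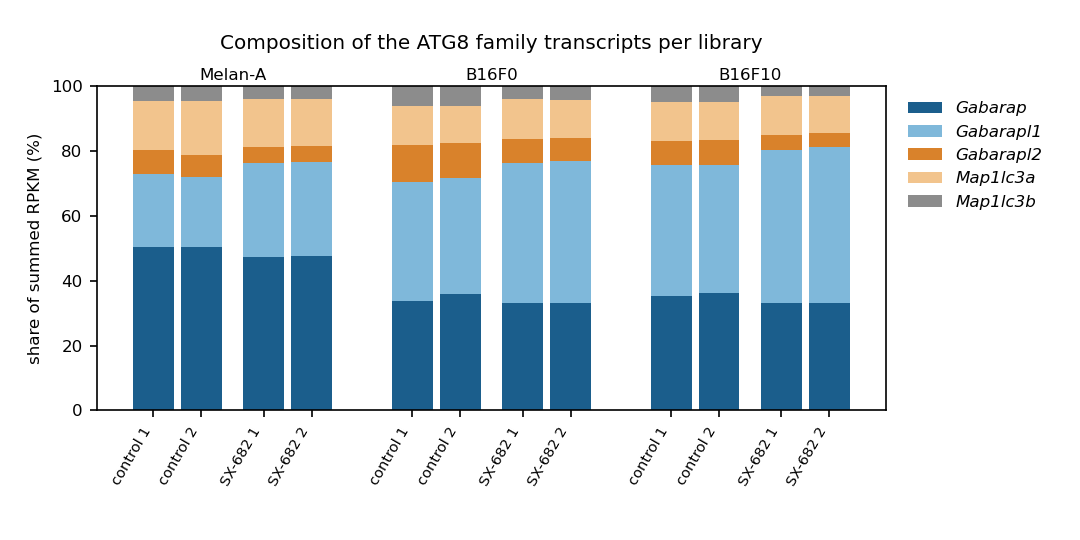
Share of each ATG8 family gene in the family's summed RPKM, in percent, in each of the 12 libraries (stacked bars; control and SX-682 libraries 1 and 2 of each line). The Gabarapl1 segment is taller in both SX-682 libraries than in both controls of every line (28.9% and 29.0% against 22.7% and 21.7% in Melan-A), and the Map1lc3b segment is shorter.

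Among the 11 conjugation genes, 5 rose and 3 fell in Melan-A, 5 rose and 2 fell in B16F0, and 4 rose and 2 fell in B16F10. The shares raised were 45.5%, 45.5% and 36.4%, beside 23.4%, 25.1% and 25.5% of all genes tested, and the shares lowered, 27.3%, 18.2% and 18.2%, were near the background of 24.7%, 25.0% and 25.3%. Atg10, Atg12 and Atg16l2 rose in all 3 lines, and the largest falls were among the ATG4 proteases. Atg12, the ubiquitin-like protein joined to ATG5, had 48.7 and 48.4 CPM in Melan-A controls and 64.2 and 63.4 with SX-682, 29.2 and 28.4 against 43.6 and 43.1 in B16F0, and 42.97 and 47.1 against 62.7 and 60.7 in B16F10. Its groups did not overlap in any line (log2 fold changes 0.39, 0.59 and 0.45, SE 0.042, 0.047 and 0.044, adjusted p = 2.97e-09, 6.95e-12 and 3.59e-10 in edgeR). Atg10 went from 4.89 and 5.06 to 8.05 and 7.83 CPM in Melan-A, while B16F0 went from 12.2 and 12.9 to 14.9 and 15.5 and B16F10 from 8.03 and 6.79 to 10.4 and 10.5. All treated libraries of Atg10 were above their controls, with log2 fold changes of 0.67, 0.28 and 0.50 (SE 0.095, 0.085 and 0.094, adjusted p = 5.43e-07, 0.00764 and 3.66e-05 in edgeR); the B16F0 call was lost without control replicate 1 (adjusted p = 0.0859) or SX-682 replicate 2 (0.0551). Atg16l2 had 10.5 and 11.1 CPM in Melan-A controls against 16.4 and 15.3 with SX-682, 8.75 and 8.97 against 11.3 and 12.3 in B16F0, and 7.32 and 7.91 against 11.1 and 11.9 in B16F10, without overlap (log2 fold changes 0.55, 0.41 and 0.59, SE 0.079, 0.086 and 0.088, adjusted p = 6.58e-07, 0.00018 and 1.19e-06 in edgeR). Although low, Atg16l2 made up 34.5%, 29.2% and 30.5% of the summed RPKM of both ATG16L genes with SX-682, against 26.5%, 25.9% and 22.0% in the controls.

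Of the 4 ATG4 proteases, which trim ATG8 precursors and release ATG8 from membranes, Atg4a and Atg4d fell in all 3 lines. Atg4a had 19.3 and 19.4 CPM in Melan-A controls and 15.3 and 13.5 with SX-682, 18.3 and 19.4 against 11.2 and 10.6 in B16F0, and 34.2 and 38.2 against 25.9 and 25.6 in B16F10. The treated libraries were below the controls in each line (log2 fold changes -0.43, -0.79 and -0.49, SE 0.068, 0.075 and 0.065, adjusted p = 4.18e-06, 2.94e-10 and 1.41e-07 in edgeR). Atg4d went from 17.3 and 18.6 to 14.6 and 15.6 CPM in Melan-A, while B16F0 went from 22.5 and 22.3 to 13.2 and 11.9 and B16F10 from 42.98 and 39.7 to 26.00 and 25.8. Again no library overlapped (log2 fold changes -0.25, -0.83 and -0.67, SE 0.065, 0.069 and 0.061, adjusted p = 0.00207, 1.67e-11 and 7.69e-11 in edgeR), and the fall was larger in the B16 lines than in Melan-A (difference -0.50, SE 0.079, adjusted p = 6.38e-06). The Melan-A call of Atg4d was lost without SX-682 replicate 1 (log2 fold change -0.19, adjusted p = 0.0633). Atg4d shares 19.3% of its exonic bases with Kri1 on the opposite strand, and Kri1 stood at 25.4 to 35.0 CPM over the groups with log2 fold changes of 0.028, 0.19 and 0.25, so that its fold changes had the opposite sign to those of Atg4d; the lowest ratio of Atg4d to Kri1 in any library was 0.332. The summed RPKM of the 4 proteases was 24.1 ± 0.0271 (SD, n = 2) in Melan-A controls and 22.2 ± 0.498 with SX-682, 22.0 ± 0.114 and 17.4 ± 0.609 in B16F0, and 33.8 ± 0.627 and 28.0 ± 0.0389 in B16F10. Their exon unions ran from 2661 bases for Atg4a to 8278 for Atg4b, so counts of these genes weigh unequally in the sum. Atg4b did not pass in any line (-0.013, -0.085 and 0.028), and Atg4c passed in Melan-A alone (0.17, adjusted p = 0.0483), a call that was lost in DESeq2 (adjusted p = 0.07) and without control replicate 2 or either SX-682 library.

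The remaining conjugation genes moved less. Atg7, the E1-like enzyme, rose in Melan-A and B16F0 (log2 fold change 0.16 and 0.27) and had 0.057 in B16F10, which passed without control replicate 2 (0.10, adjusted p = 0.0418). Atg3, the E2-like enzyme for ATG8 whose upstream sequence is printed above, had 0.0036, 0.044 and 0.13, of which the B16F10 value passed but was lost without control replicate 2 or SX-682 replicate 1 (adjusted p = 0.166 and 0.109). Atg5 fell by 0.15 on the log2 scale in Melan-A (adjusted p = 0.0166), which was lost without either control library or SX-682 replicate 1 (adjusted p of 0.0584 to 0.212), and had -0.093 and -0.077 in the B16 lines. Atg16l1, the usual partner of ATG12-ATG5, passed in B16F0 alone (0.18), a call lost without control replicate 2 or SX-682 replicate 1 (adjusted p = 0.0587 and 0.0516).

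**Figure D4:**
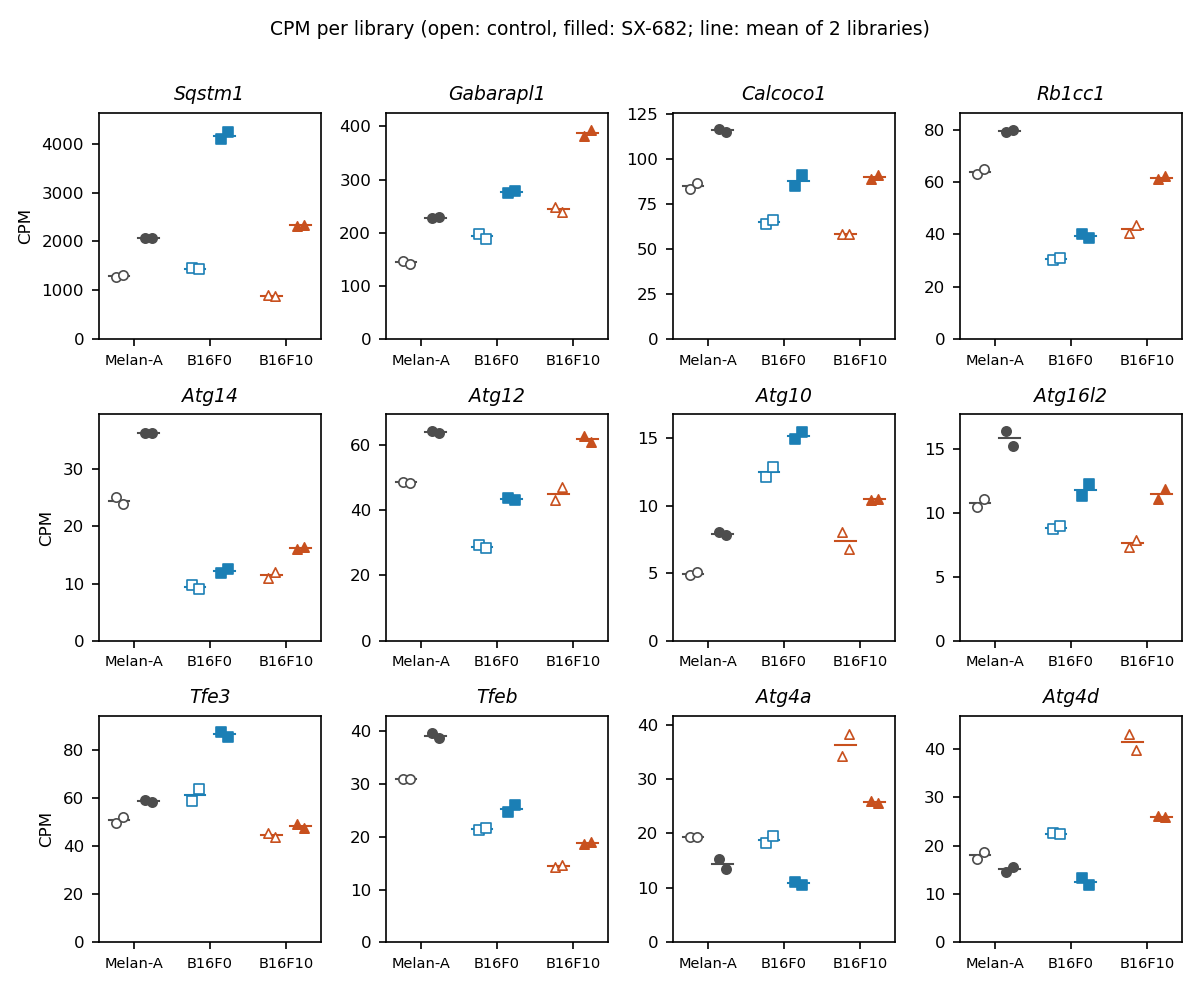
CPM of 12 genes in each library (open symbols, control; filled symbols, SX-682; horizontal lines, mean of 2 libraries; the vertical axes start at 0). In each panel the filled symbols stand apart from the open symbols of the same line, higher in 10 genes and lower for Atg4a and Atg4d.

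In the lipid kinase complex, 3 of 6 genes rose and 1 fell in Melan-A, 3 rose and 1 fell in B16F0, and 3 rose and 2 fell in B16F10. That is 50% raised in each line, beside 23.4% to 25.5% of all genes tested, and 16.7%, 16.7% and 33.3% lowered, beside 24.7% to 25.3%. Atg14 and Uvrag, which define the autophagosomal and the endosomal form of the complex, rose in all 3 lines, and Becn1, the shared core subunit, did not rise in any. Atg14 had 25.1 and 23.9 CPM in Melan-A controls and 36.2 and 36.3 with SX-682, 9.84 and 9.04 against 11.8 and 12.6 in B16F0, and 10.9 and 12.1 against 15.96 and 16.4 in B16F10. The groups did not overlap within a line, yet both treated B16 groups stayed below the Melan-A controls (log2 fold changes 0.57, 0.36 and 0.49, SE 0.060, 0.076 and 0.072, adjusted p = 2.75e-09, 0.000177 and 9.19e-07 in edgeR). Uvrag had log2 fold changes of 0.31, 0.31 and 0.19. Ambra1, which brings the lipid kinase complex together with ULK1 and ubiquitin ligases, was raised in B16F0 and lowered in B16F10. It had 57.4 and 58.98 CPM in Melan-A controls and 60.2 and 57.9 with SX-682, 51.8 and 52.9 against 60.5 and 62.3 in B16F0, and 59.3 and 55.98 against 44.5 and 45.6 in B16F10. The Melan-A groups overlapped and those of the B16 lines did not (log2 fold changes 0.021, 0.23 and -0.36, SE 0.039, 0.041 and 0.042, adjusted p = 0.703, 1.93e-05 and 1.72e-08 in edgeR). The responses of B16F10 and B16F0 differed by -0.59 (SE 0.058, adjusted p = 4.17e-09). Becn1 fell by 0.23 on the log2 scale in Melan-A and had -0.053 and -0.036 in B16F0 and B16F10, of which the first passed with library totals (-0.069, adjusted p = 0.0401); it shares 43.9% of its exonic bases with Cntd1 on the opposite strand, whose counts were at least 29.7 times lower in every library. Pik3c3, the catalytic subunit, rose in Melan-A (0.23) and B16F10 (0.16, lost without control replicate 1, adjusted p = 0.0542), and Pik3r4, its regulatory partner, fell in B16F0 (-0.14, lost without control replicate 2 or SX-682 replicate 1, adjusted p = 0.107 and 0.214) and in B16F10 (-0.16).

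In the initiation complex, 4 of 5 genes rose in Melan-A, 2 rose and 2 fell in B16F0, and 2 rose in B16F10. In all genes tested 23.4% to 25.5% rose and 24.7% to 25.3% fell, against 80% and 0% of this complex in Melan-A, 40% and 40% in B16F0, and 40% and 0% in B16F10. Rb1cc1 rose in every line, from 62.96 and 64.9 to 79.2 and 79.9 CPM in Melan-A, while B16F0 went from 30.3 and 30.9 to 40.1 and 38.6 and B16F10 from 40.6 and 43.7 to 61.2 and 62.3. Its treated libraries stood above the controls of the same line (log2 fold changes 0.32, 0.37 and 0.55, SE 0.039, 0.045 and 0.042, adjusted p = 4.93e-08, 5.6e-08 and 2.57e-12 in edgeR). Atg13 and Atg101, adaptor subunits that bind each other, rose in Melan-A and were lower with SX-682 in B16F0. Atg13 had 49.8 and 49.4 CPM in Melan-A controls and 63.3 and 57.7 with SX-682, 43.6 and 40.8 against 38.1 and 38.2 in B16F0, and 57.6 and 58.7 against 60.9 and 62.1 in B16F10 (log2 fold changes 0.29, -0.15 and 0.081, SE 0.043, 0.047 and 0.044, adjusted p = 1.5e-06, 0.0104 and 0.133 in edgeR). The B16F0 fall of Atg13 was lost without control replicate 1 (log2 fold change -0.098, adjusted p = 0.179), and the mean B16 response differed from that of Melan-A by -0.32 (SE 0.054, adjusted p = 1.64e-05). Atg101 had 64.01 and 65.2 CPM in Melan-A controls and 79.4 and 79.7 with SX-682, 46.6 and 46.6 against 44.1 and 43.1 in B16F0, and 47.9 and 49.4 against 46.3 and 47.03 in B16F10 (log2 fold changes 0.30, -0.10 and -0.060, SE 0.036, 0.040 and 0.040, adjusted p = 2.63e-08, 0.044 and 0.22 in edgeR). Its B16F0 call lay at the threshold and was lost in DESeq2 (adjusted p = 0.14). In edgeR it was lost with RLE scaling (adjusted p = 0.0883), no filter (0.0861), at least 10 counts (0.0587), the replicate block (0.0537) and separate fits (0.0801). It was also lost without any of the 4 B16F0 libraries in turn, where log2 fold changes ran from -0.11 to -0.080. The difference of the mean B16 response from that of Melan-A was -0.38 (SE 0.045, adjusted p = 6.53e-08 in edgeR). Of the kinases, Ulk1 rose in B16F0 alone (0.19, with 0.033 and -0.016 in Melan-A and B16F10), and Ulk2 rose in Melan-A and B16F10 (0.17 in both) with 0.046 in B16F0.

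The membrane supply and PI3P effector genes were raised in Melan-A in 4 of 5 cases, and none of them passed in B16F0. In B16F10, 2 rose and 2 fell. The background over all genes tested was 23.4% raised in Melan-A, 25.1% raised and 25.0% lowered in B16F0, and 25.5% raised and 25.3% lowered in B16F10. Atg2b, a lipid transfer protein of the growing membrane, rose in Melan-A from 55.8 and 56.4 to 64.6 and 69.2 CPM, overlapped in B16F0 (67.96 and 70.3 against 73.8 and 70.2) and fell in B16F10 from 61.9 and 60.3 to 54.3 and 57.4 (log2 fold changes 0.25, 0.062 and -0.13, SE 0.040, 0.041 and 0.042, adjusted p = 3.45e-06, 0.224 and 0.0101 in edgeR). The fall in B16F10 was lost without control replicate 1 (adjusted p = 0.0874) or SX-682 replicate 1 (0.129), and the mean B16 response differed from that of Melan-A by -0.29 (SE 0.050, adjusted p = 2.24e-05). Atg2a rose in Melan-A (0.34) and had -0.099 and 0.10 in B16F0 and B16F10, the latter passing with library totals (adjusted p = 0.0491). Wipi1 and Wipi2, which bind PI3P, rose in Melan-A (0.47 and 0.28) and B16F10 (0.27 and 0.13) and had 0.055 and 0.042 in B16F0. Without B16F0 control replicate 1, Wipi2 passed there (0.11, adjusted p = 0.029), and the B16F10 call of Wipi2 was lost without control replicate 1 (adjusted p = 0.113). Atg9a, the membrane protein of the vesicles that seed autophagosomes, had -0.015 and -0.014 in Melan-A and B16F0 and fell in B16F10 by 0.15 on the log2 scale, which was lost without control replicate 1 or SX-682 replicate 1 (adjusted p = 0.311 and 0.255).

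**Figure D5:**
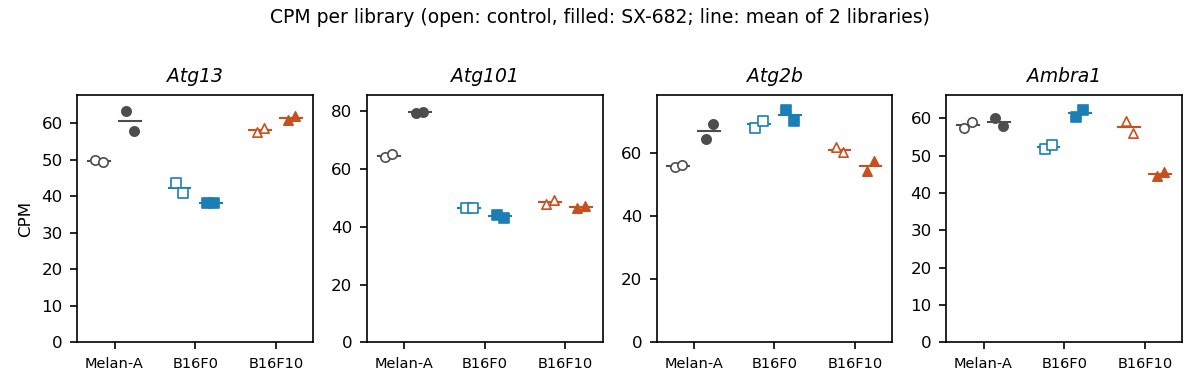
CPM in each library of the 4 genes that passed the threshold in opposite directions in different lines (open symbols, control; filled symbols, SX-682; horizontal lines, mean of 2 libraries; the vertical axes start at 0). Atg13 and Atg101 stand higher with SX-682 in Melan-A and lower in B16F0, and Ambra1 is higher in B16F0 (60.5 and 62.3 CPM) and lower in B16F10 (44.5 and 45.6 CPM). The Atg101 call in B16F0 lay at the threshold and was lost in DESeq2, with RLE scaling and in separate fits.

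Both transcription factors rose in all 3 lines, as did 11.3% of all genes tested. Tfeb had 30.9 and 30.97 CPM in Melan-A controls and 39.6 and 38.6 with SX-682, 21.2 and 21.7 against 24.6 and 26.1 in B16F0, and 14.3 and 14.6 against 18.7 and 19.03 in B16F10. Treated libraries lay above controls in each line, while both treated B16 groups stayed below the Melan-A controls (log2 fold changes 0.34, 0.24 and 0.39, SE 0.050, 0.056 and 0.060, adjusted p = 1.22e-06, 0.000603 and 2.73e-06 in edgeR). Tfe3 went from 49.5 and 52.1 to 59.2 and 58.4 CPM in Melan-A, while B16F0 went from 58.7 and 63.7 to 87.5 and 85.6 and B16F10 from 45.5 and 43.7 to 49.1 and 47.7. It rose most in B16F0 (log2 fold changes 0.21, 0.50 and 0.12, SE 0.042, 0.041 and 0.045, adjusted p = 8.61e-05, 1.51e-11 and 0.0262 in edgeR), and the B16F10 response differed from that of B16F0 by -0.38 (SE 0.061, adjusted p = 1.11e-05). The B16F10 call of Tfe3 was lost in DESeq2 (adjusted p = 0.0602), with no filter on low counts (0.0504) and without control replicate 2 (0.251) or SX-682 replicate 1 (0.215).

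The response to SX-682 was then compared between lines gene by gene. An F-test over the 3 lines was passed by 27 of the 39 genes (69.2%, against 47.4% of all genes tested). Members had at least 422 counts in every library, and the share over all genes was not matched for that. The mean response of the B16 lines differed from that of Melan-A for 16 (41.0% against 35.8%), and B16F10 differed from B16F0 for 18 (46.2% against 30.3%). The comparisons of B16F0 and B16F10 with Melan-A share the Melan-A libraries. Among the 12 genes that did not pass the F-test were Atg14, Atg16l2, Uvrag, Gabarapl2 and Tfeb, which had passed in the same direction in every line; a p that misses the threshold does not show equal responses.

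Genes of 4 further lists of the pathway were counted beside the members, and their shares are read against the 23.4%, 25.1% and 25.5% of all genes tested that rose, and the 24.7%, 25.0% and 25.3% that fell, in Melan-A, B16F0 and B16F10. Of 9 membrane and PI3P partners, 6 rose and 0 fell in Melan-A, 4 rose and 2 fell in B16F0, and 5 rose and 2 fell in B16F10, with median log2 fold changes of 0.37, 0.088 and 0.26 beside 0 over all genes tested. The shares raised were 66.7%, 44.4% and 55.6%, and the 22.2% lowered in each B16 line was near the background. Atg9b, a relative of Atg9a, fell in B16F0 (log2 fold change -1.0) and B16F10 (-1.64) from controls of 0.934 to 1.63 CPM, and the B16F0 call was lost without SX-682 replicate 1 (adjusted p = 0.112). Of 18 further receptors and mitophagy genes, 8 rose and 5 fell in Melan-A, 6 rose and 6 fell in B16F0, and 6 rose and 7 fell in B16F10 (medians 0.13, 0.061 and 0.0040). These were 44.4%, 33.3% and 33.3% raised and 27.8%, 33.3% and 38.9% lowered. Stbd1, a receptor for glycogen, rose in all 3 lines (1.70, 1.20 and 1.19) at levels of 0.264 to 2.52 CPM. Bnip3, a mitophagy receptor, rose in Melan-A from 25.9 and 23.8 CPM to 50.1 and 50.6 CPM (1.02), fell in B16F0 (-0.32) and rose in B16F10 (0.30).

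Of 14 genes for fusion with lysosomes, 7 rose and 4 fell in Melan-A, 3 rose and 6 fell in B16F0, and 4 rose and 9 fell in B16F10 (medians 0.13, -0.087 and -0.18). The shares were 50%, 21.4% and 28.6% raised and 28.6%, 42.9% and 64.3% lowered, of which the rises in both B16 lines and the falls in Melan-A were near the background. None of these 14 passed with an absolute log2 fold change of 1. Of 13 genes of the MiT family and nutrient sensing, 7 rose and 5 fell in Melan-A, 4 rose and 5 fell in B16F0, and 3 rose and 7 fell in B16F10 (medians 0.13, 0.0075 and -0.14). Of these 53.8%, 30.8% and 23.1% rose and 38.5%, 38.5% and 53.8% fell, and the shares raised in B16F0 and B16F10 were near the background. Mitf, the melanocytic relative of Tfeb and Tfe3, fell in all 3 lines, with log2 fold changes of -0.36, -2.11 and -1.14, and had 371 and 362 CPM in B16F0 controls against 86.8 and 82.4 CPM with SX-682. The direction of Mitf was thus opposite to that of Tfeb and Tfe3 in every line.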

How the data were processed

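Gene-level counts of 12 RNA-seq libraries were used as the authors deposited them, not normalised, with 1 column per library; all columns were mapped to samples. The submitters' processing notes name cutadapt, STAR, DESeq2 and mm10, without versions. The counting program, its use of strand and its treatment of reads that fit several places are not given in the sources used here.

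Genes were kept by edgeR's filterByExpr, scaled by TMM and fitted in 1 model with 6 groups (R 4.3.3, edgeR 4.0.16, prior count 0.125). Contrasts were tested by the quasi-likelihood F-test with Benjamini-Hochberg adjustment over 18338 genes at 0.05; the SE is the absolute log2 fold change divided by the square root of F. CPM are after TMM, and RPKM divide them by the union of exons in the GENCODE M21 annotation of the same build. A floor of 3 counts lay at 0.033 to 0.0623 CPM. The fit was also run on simulated counts in which few genes changed, by the same amount in each line, with a common spread and no difference between lines. That setting differs from these data, and its outcome is not used as support here. Figures were drawn with matplotlib 3.10.9.

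The members and lists were chosen with earlier results of these data known. Values in each library were given for members that passed in all 3 lines and moved by 0.5 or more (log2) in 1 of them, passed in opposite directions, or differed between untreated lines by at least 1; genes of other lists were named from 1, except 1 gene that is not reported here. Alternatives were DESeq2 1.42.0, RLE scaling, library totals, no filter or at least 10 counts, separate fits, a fold limit of 0.5, a replicate block and each library left out. Same-numbered libraries did not deviate together (correlations -0.0108, 0.0455 and -0.0111 over 9515 genes).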

Additional observations from a re-analysis of the deposited data

Results flagged for a closer look

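The change with SX-682 differed among the 3 lines for 27 of the 39 genes in edgeR's quasi-likelihood F-test of the interaction (69.2%, against 47.4% of all genes tested). With no filter on low counts the number was 23. The range of the log2 fold change over the lines is given for each of the 27. Sqstm1 had the widest range, 0.846, with its smallest rise in Melan-A. Ambra1 followed with 0.586, between a rise in B16F0 and a fall in B16F10. For Atg4d the range was 0.583, between a smaller fall in Melan-A and a larger one in B16F0.

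Ranges over 0.3 on the log2 scale were 0.440 for Atg2a, 0.432 for Atg13, 0.413 for Wipi1, 0.398 for Atg101, 0.398 for Atg10, 0.386 for Atg2b, 0.383 for Tfe3, 0.382 for Map1lc3b, 0.361 for Atg4a and 0.333 for Tax1bp1. The rest had narrower ranges, 0.268 for Nbr1, 0.247 for Map1lc3a, 0.244 for Optn, 0.235 for Rb1cc1, 0.234 for Wipi2, 0.225 for Atg16l1, 0.217 for Atg7, 0.209 for Ulk1, 0.198 for Becn1, 0.197 for Atg12, 0.186 for Calcoco1, 0.183 for Pik3r4, 0.150 for Gabarapl1 and 0.105 for Gabarap. All of these differences were tested across lines that are each represented by 2 libraries a group.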

How the results depend on the processing

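Over the settings tried, 195 single gene values were recomputed 3696 times in all, of which 3575 kept direction and side of the threshold, 90 lost the threshold, 7 passed it and 24 changed sign. Of these recomputations, 2340 left out 1 library. For an SX-682 change within a line, libraries of the other lines enter only the filter, the scaling and the shared spread. The tally is thus not a measure of how stable the values are. With a limit of 0.5 on the absolute log2 fold change, the members raised and lowered by SX-682 numbered 5 and 0 in Melan-A, 4 and 2 in B16F0, 6 and 1 in B16F10, and 2 and 0 in all 3 lines. Under that limit the untreated differences were 4 higher and 8 lower for B16F0 against Melan-A, 10 and 9 for B16F10 against Melan-A, and 5 and 3 for B16F10 against B16F0. The response differed for 2 members between B16 and Melan-A, and for 1 between B16F10 and B16F0. The limit itself leaves fewer genes, and shares of all genes tested under it were not counted. Leaving out each library in turn gave 24 to 25 raised and 3 to 5 lowered in Melan-A (3 without SX-682 replicate 1), 19 to 20 and 5 to 7 in B16F0, 18 to 20 and 6 to 8 in B16F10, and 12 to 19 with a different response between B16F10 and B16F0. With the replicate block the call of Atg101 in B16F0 was lost (log2 fold change -0.097, adjusted p = 0.0537) and no other call changed; the replicate numbers did not pair the libraries. The separate fit cannot give the response of the B16 mean against Melan-A or the test over 3 lines.

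Of the sign changes, 1 touched a call: Atg2b in untreated B16F10 against Melan-A was 0.12 with TMM and -0.061 with library totals. Library totals also gave 0.0044 for Atg4b and 0.0023 for Atg9a with SX-682 in Melan-A, and -0.031 for Atg101 in untreated B16F10 against B16F0. Atg9a with SX-682 in B16F0 was 0.00050 in DESeq2 and 0.00065 with RLE scaling, and Ambra1 in untreated B16F10 against Melan-A was 0.0069 with no filter and 0.0014 in the separate fit. With libraries left out, the SX-682 changes in Melan-A ran from -0.028 to 0.11 for Ulk1, -0.080 to 0.10 for Atg3, -0.054 to 0.037 for Atg9a and -0.034 to 0.068 for Atg16l1. Those in B16F0 ran from -0.038 to 0.17 for Atg4c, -0.046 to 0.016 for Atg9a and -0.027 to 0.11 for Wipi2, and those in B16F10 from -0.078 to 0.037 for Ulk1, -0.0080 to 0.058 for Atg4b and -0.00066 to 0.033 for Atg4c. Untreated differences ran from -0.073 to 0.0075 for Atg4a in B16F0 against Melan-A and from -0.051 to 0.038 for Ambra1 in B16F10 against Melan-A. The cause was not tested. The lowest count of any member was 422. For the SX-682 change in Melan-A the SE was 0.095 for Atg10, which had 422 to 984 counts over the libraries. It was 0.019 for Sqstm1, which had 54198 to 269253. The parts of counting depth and of the spread between 2 libraries a group were not told apart.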
